A study of Homo sapiens with 18 samples.

Results

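The collagen genes were followed in SKOV-3, a human ovarian carcinoma cell line, with and without the luteinizing hormone receptor (LHR) and after addition of luteinizing hormone (LH). A gene was taken where a probe set of the expression microarray was annotated to a single symbol made of COL, a number, A and a number, and the probe set with the highest mean log2(intensity + 1) over the 6 groups stood for its gene. This gave 43 collagen genes, measured by 112 probe sets, of 19775 genes in all. They comprised 11 fibrillar chains, 6 basement membrane chains of type IV, 10 fibril-associated chains, 3 short-chain network chains, 3 transmembrane chains, 2 multiplexins and 1 anchoring fibril chain. The other 7 were grouped as beaded filament and von Willebrand A domain chains, and COL26A1 was placed with them by the grouping alone. The 18 arrays fell into 6 groups of 3: LHR+ cells, stably transfected to express LHR and given no LH; LHR+ cells treated with 50 ng/ml LH for 1, 4, 8 or 20 h (LH1, LH4, LH8 and LH20); and LHR- cells, which are SKOV-3 without LHR. The LHR- cells are the parent line in the study's methods and mock-transfected cells elsewhere in it, and the sources used here do not say whether LHR+ is 1 clone. A single LHR+ group without LH was compared with all 4 LH times, so time in culture and LH cannot be told apart.

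Collagens are extracellular proteins built of alpha chains wound around each other in a helix, and the chains of a type are products of separate genes. Fibrillar collagens form the fibrils that give tissue its tensile strength, type IV collagens form the sheet-like network of basement membranes on which epithelia rest, and the remaining classes decorate, anchor or connect these assemblies. Many carcinoma cell lines make collagen chains of their own, and basement membrane collagen is a substrate that invading cells have to cross.

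The median intensity per array ranged between 46.9 and 57.9, and Pearson correlations of log2 intensities between arrays ranged between 0.954 and 0.975, with no identical arrays. LHCGR, the gene of the receptor, read between 0.196 and 4.11 on all 18 arrays, the LHR+ arrays included, so its single probe set did not register the transfected receptor and could not check the labels. The sources used here do not say which part of the transcript the construct carries. Of 11 epithelial and ovarian carcinoma markers, 10 averaged over 16 in every group, whereas 3 leukocyte markers summed to at most 46.9 and 4 endothelial markers to at most 74.2 on any array. Of the 43 collagen genes, 15 had signals above that of the median gene, 19 lay between, and 9 averaged under 16 in every group (COL10A1, COL19A1, COL21A1, COL22A1, COL26A1, COL4A5, COL4A6, COL5A3 and COL6A5). These signals order probe sets, not transcript amounts, since probe sets differ in affinity.

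With LHR expression and no LH, 10 of the 43 collagen genes changed at least 2-fold: COL11A1, COL13A1, COL27A1 and COL4A3 rose, and COL1A2, COL3A1, COL5A2, COL6A3, COL8A1 and COL15A1 fell. A gene was called where limma gave p under 0.05 and a Benjamini-Hochberg adjusted p under 0.1, the fold was at least 2, and the 3 arrays of one group all lay above the 3 of the other. The same rule called 4.63% of all genes, 2.57% higher and 2.06% lower. The median log2 fold change was -0.09 over the collagen genes and -0.00 over all genes. By adjusted p alone, 6 collagen genes were higher and 12 lower in LHR+ cells, against 10.4% and 8.22% of all genes.

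**Figure D1:**
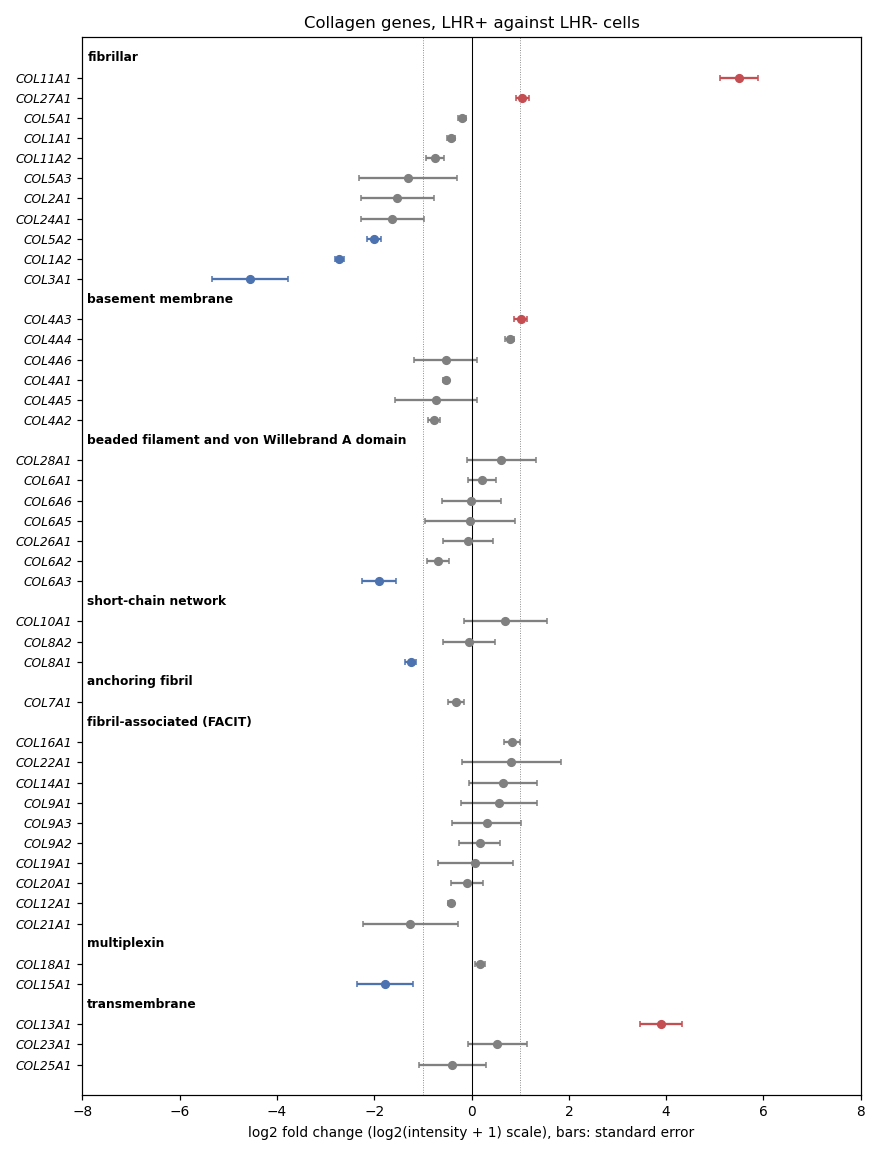
Log2 fold change of each of the 43 collagen genes in LHR+ against LHR- cells, on the log2(intensity + 1) scale, grouped by structural class, with standard errors as bars. Red marks the 4 genes called higher, blue the 6 called lower and grey the rest; dotted lines mark a 2-fold change, and the fibrillar class holds both COL11A1 at 5.49 and COL3A1 at -4.56.

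Type I collagen is the main fibrillar collagen of connective tissue, and its 2 chains are products of COL1A1 and COL1A2. COL1A2 read 1096, 1160.1 and 1009 in LHR+ cells, against 7153, 7193 and 7099 in LHR- cells. No array of either group came near the other, and the log2 fold change was -2.72 (SE 0.09, adjusted p = 4.2e-10 by limma). COL1A1 read 12158, 13197 and 12522 in LHR+ cells, against 16256, 17276 and 17188 in LHR- cells. The COL1A1 groups did not overlap either, but the log2 fold change was only -0.42 (SE 0.07, adjusted p = 0.0017), under the fold threshold. Set against COL1A1 within each array, by the brightest probe set of each gene, COL1A2 fell by 2.30 on the log2 scale (SE 0.06). The arrays were separated, and an exact two-sided permutation test gave p = 0.1, the smallest that 3 against 3 arrays allow. COL1A2 was already far apart and COL1A1 was chosen after its values were seen, so this p adds nothing to the values above. The size of this ratio depends on the COL1A1 probe set used.

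Type V collagen nucleates type I fibrils and sets their diameter, and its chains COL5A1 and COL5A2 differed in the same way. COL5A2 read 979.8, 1059.7 and 831 in LHR+ cells, against 3992, 4309 and 3223 in LHR- cells (log2 fold change -2.00, SE 0.14, adjusted p = 6.8e-07). The lowest LHR- array stood far above the highest LHR+ array. COL5A1 changed by -0.20 (SE 0.08, adjusted p = 0.15) and was not called. The log2 ratio of COL5A2 to COL5A1 fell by 1.80 (SE 0.21, exact p = 0.1). COL5A2 was already far apart and COL5A1 was chosen after its values were seen, so this p adds nothing to the values above.

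COL3A1, the chain of type III collagen, which forms fibrils together with type I, read 26.1, 18.7 and 0.411 in LHR+ cells, against 238, 216 and 189.9 in LHR- cells. Replicate 3 of LHR+ was close to the lowest values on the arrays, and the log2 fold change of -4.56 (SE 0.78, adjusted p = 0.0014) was -3.22 without that array and -2.99 with 16 in place of 1 added before the logarithm. In a fit of the 2 groups alone the adjusted p was 0.105, above the threshold. COL3A1 and COL5A2 are adjacent protein-coding genes on chromosome 2, and both were lower in LHR+ cells.

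COL11A1 and COL27A1 were the fibrillar chains that rose. The product of COL11A1 is a chain of type XI collagen, a minor fibrillar collagen best known from cartilage and also found in tumour stroma. COL11A1 read 299, 298 and 284 in LHR+ cells, against 9.37, 9.57 and 1.56 in LHR- cells. The LHR- arrays were near the bottom of the scale and the LHR+ arrays lay well above it, with a log2 fold change of 5.49 (SE 0.39, adjusted p = 6.2e-07), or 3.78 with 16 added. The other 2 probe sets of COL11A1 were also called higher, at 2.09 and 4.73. COL27A1, a fibrillar chain of cartilage, read 518, 529 and 606 in LHR+ cells and 259, 279.7 and 261 in LHR- cells (log2 fold change 1.04, SE 0.13, adjusted p = 0.00011). Of its 4 other probe sets, 2 ran the other way, and with all probe sets averaged the change was 0.50 (adjusted p = 0.13).

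The first 250 bases before the annotated start of COL11A1, the collagen gene with the most positive change, are shown with RefSeq's coordinates (GRCh38.p14, chr1:103108523-103108772, minus strand), with GGGCGG (the GC box), CCAAT and their reverse complements in capitals.
COL11A1: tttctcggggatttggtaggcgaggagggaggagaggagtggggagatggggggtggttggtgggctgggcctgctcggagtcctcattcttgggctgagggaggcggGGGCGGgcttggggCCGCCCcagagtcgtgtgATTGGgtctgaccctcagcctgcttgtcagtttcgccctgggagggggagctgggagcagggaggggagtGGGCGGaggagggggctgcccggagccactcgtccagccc
The window held GGGCGG or its reverse complement 3 times and CCAAT once, as its reverse complement. It held none of TATAAA, TGACGTCA (the full cyclic AMP response element) and TGANTCA (the AP-1 element). Over the RefSeq windows that run 250 bases before to 50 bases after a start, searched on both strands, 45.0% of 35116 windows held GGGCGG and 34.6% held CCAAT. Of the 43 collagen genes 31 matched this table, with 43 windows in all, of which 24 held GGGCGG, 13 held CCAAT, 7 held TATAAA (11.5% of all windows), 1 held TGANTCA (7.71%) and 0 held TGACGTCA (1.85%).

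The type IV chains of basement membranes went apart by gene pair. COL4A3 and COL4A4 encode chains that assemble together in the basement membranes of kidney glomerulus, lung and inner ear, while COL4A1 and COL4A2 encode the chains found in nearly all basement membranes. COL4A3 read 1851, 1454 and 1689 in LHR+ cells, against 759.8, 1019 and 716 in LHR- cells (log2 fold change 1.01, SE 0.13, adjusted p = 0.00016). The call ended, at log2 fold changes between 0.91 and 1.00, when LHR- replicate 1 or 3 or LHR+ replicate 1 or 3 was left out. COL4A4 read 1397, 1412 and 1331 in LHR+ cells, against 884, 769 and 758 in LHR- cells, and its log2 fold change of 0.78 (SE 0.10, adjusted p = 1.0e-04) missed the fold threshold. Both were higher on every LHR+ array than on any LHR- array. COL4A1 read 6213, 6371 and 6644 in LHR+ cells, against 9122, 9730.2 and 9039 in LHR- cells, with a log2 fold change of -0.54 (SE 0.06, adjusted p = 3.9e-05). COL4A2 read 3236, 4068 and 3257 in LHR+ cells, against 5159, 6729 and 6243 in LHR- cells, with a log2 fold change of -0.78 (SE 0.12, adjusted p = 0.00074). Both were lower on every LHR+ array, by less than 2-fold on the brightest probe set. Another COL4A1 probe set averaged 298 in LHR+ cells and 694 in LHR- cells and was called lower. COL4A5 and COL4A6 were under 16 in every group.

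Each pair lies head to head, so the stretch between the starts of its 2 genes is shown, read on the plus strand (GRCh38.p14; between COL4A4 and COL4A3, chr2:227164489-227164623, and between COL4A1 and COL4A2, chr13:110307158-110307283), because the 2 pairs moved in opposite directions in LHR+ cells. Capitals mark the same motifs as above.
COL4A4-COL4A3: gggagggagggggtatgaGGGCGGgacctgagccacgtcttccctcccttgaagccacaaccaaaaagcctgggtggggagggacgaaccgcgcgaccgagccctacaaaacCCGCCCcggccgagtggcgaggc
COL4A1-COL4A2: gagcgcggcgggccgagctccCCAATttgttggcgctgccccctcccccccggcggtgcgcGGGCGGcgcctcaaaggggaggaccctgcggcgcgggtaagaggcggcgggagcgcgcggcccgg
The stretch of 135 bases between COL4A4 and COL4A3 held GGGCGG once in each direction. That of 126 bases between COL4A1 and COL4A2 held CCAAT once and GGGCGG once. Neither held TATAAA, TGACGTCA or TGANTCA. The log2 ratio of COL4A3 to COL4A1 rose by 1.55 in LHR+ cells (SE 0.17) and that of COL4A4 to COL4A2 by 1.56 (SE 0.20). Each had an exact p = 0.1 by permutation, which adds nothing to the values above. The chains of each ratio were already separated in opposite directions, so this p was fixed in advance.

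Type VI collagen forms beaded filaments around cells. COL6A3, its large chain, read 102, 87.6 and 64.2 in LHR+ cells, against 272, 403 and 281 in LHR- cells (log2 fold change -1.90, SE 0.35, adjusted p = 0.0024). The adjacent genes COL6A1 and COL6A2, for the other classical chains, changed by 0.21 (SE 0.28, adjusted p = 0.72) and -0.69 (SE 0.22, adjusted p = 0.055) and were not called. COL8A1, a short-chain collagen of the vessel wall and the cornea, read 827, 844 and 790.2 in LHR+ cells, against 2111, 1818 and 1958 in LHR- cells (log2 fold change -1.25, SE 0.11, adjusted p = 4.9e-06).

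The remaining called genes were dim. COL13A1, a transmembrane collagen of cell junctions, read 72, 40.3 and 38.7 in LHR+ cells, against 1.28, 1.06 and 6.74 in LHR- cells. Its log2 fold change of 3.90 (SE 0.44, adjusted p = 4.4e-05) was 1.78 with 16 added, and its other 2 probe sets, at -0.42 and 1.26, were not called. COL15A1, a multiplexin of basement membrane zones, read 8.22, 1.90 and 7.17 in LHR+ cells, against 9.48, 28.3 and 27.4 in LHR- cells, with a log2 fold change of -1.77 (SE 0.57, adjusted p = 0.057). The call of COL15A1 was lost when LHR- replicate 2 or 3 or LHR+ replicate 2 was left out, with log2 fold changes of -1.52, -1.54 and -1.24. The 28 collagen genes called in none of the 9 comparisons had log2 fold changes between -1.63 and 0.83 in LHR+ against LHR- cells and between -1.05 and 1.74 in LH20 against LHR+ cells. Beside the 9 dim genes named above and the bright COL1A1, COL4A1, COL4A2, COL5A1, COL12A1 and COL18A1, they were the fibrillar COL24A1, the fibril-associated COL9A1, COL9A2, COL9A3, COL14A1, COL16A1 and COL20A1, the filament chains COL6A2, COL6A6 and COL28A1, the short-chain COL8A2 and the transmembrane COL23A1 and COL25A1.

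The lower readings of COL1A2, COL3A1 and COL5A2 stood beside lower readings of stromal markers, while the fibrillar COL11A1 and COL27A1 rose. Over 10 fibroblast and stroma markers, summed intensities were between 1330 and 1437 in LHR+ cells, against 6489 and 7436 in LHR- cells. LUM, POSTN, FAP and DCN were called lower, PDGFRB was called higher, and 5 were not called. LUM, a proteoglycan of collagen fibrils, made up most of the sum in LHR- cells, and read 21 ± 4.6 in LHR+ cells and 5117 ± 472 in LHR- cells (SD, n = 3 each). POSTN and FAP averaged 5.84 and 8.02 in LHR+ cells, against 805 and 65.1 in LHR- cells. Of 11 epithelial and ovarian carcinoma markers, WT1 was called higher and EPCAM lower in LHR+ cells. Their summed intensities were between 24602 and 26792 in LHR+ cells, against 26411 and 29754 in LHR- cells. Whether the cells of the 2 groups differ in type or in RNA per cell cannot be told apart in bulk RNA, and the part of these markers in the collagen values was not tested.

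**Figure D2:**
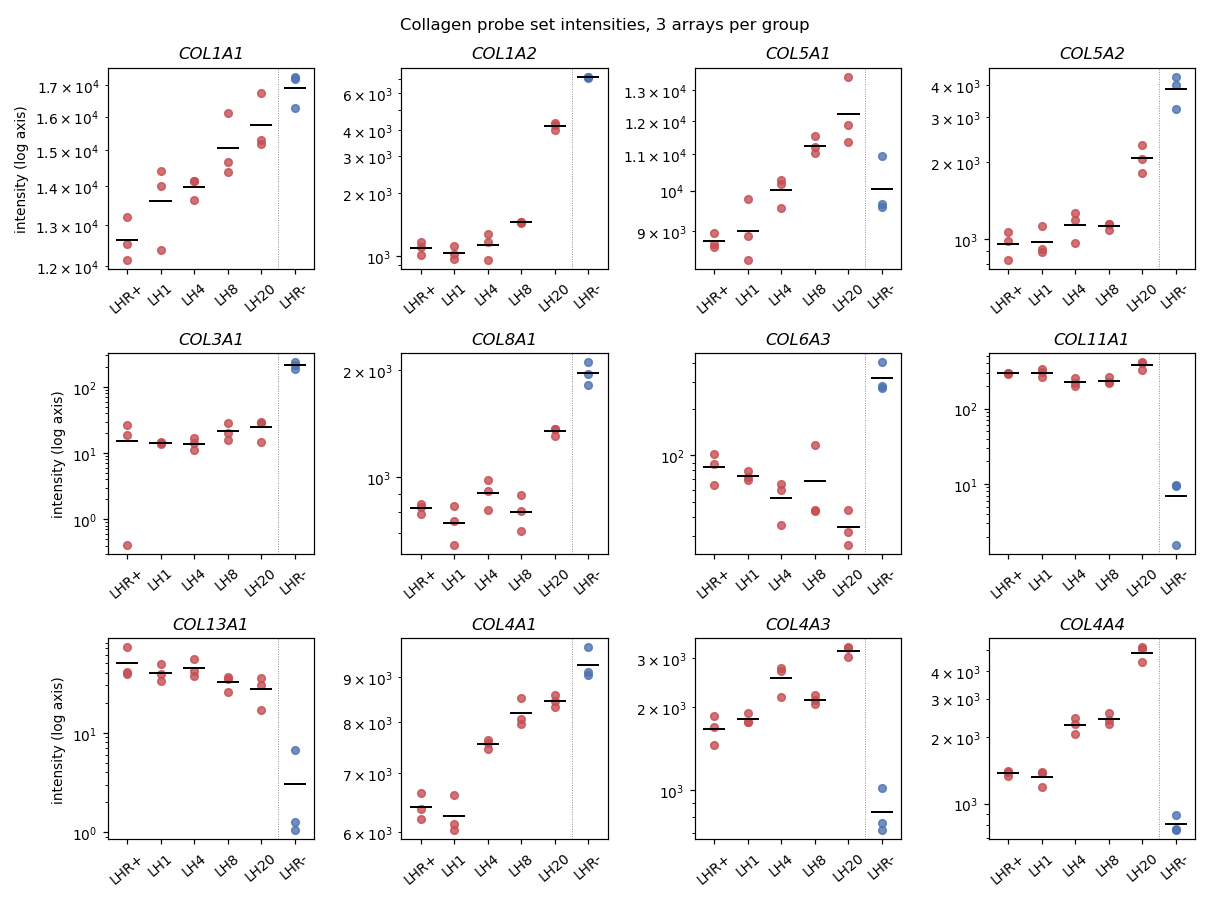
Intensity of the probe set of 12 collagen genes on each of the 18 arrays, on log axes that differ between panels; points are arrays, bars are means of 3, red marks cells with LHR and blue LHR- cells. COL1A2 and COL5A2 sit far below LHR- in LHR+ cells and part of the way back at LH20, COL4A3 and COL4A4 are above LHR- throughout, and COL3A1 and COL6A3 stay low at every LH time.

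After LH, no collagen gene was called at 1, 4 or 8 h against LHR+ cells without LH, where 0.324%, 2.23% and 1.73% of all genes were called. At an unadjusted p under 0.05, limma gave 1, 7 and 11 collagen genes at these times, against 7.03%, 19.4% and 20.2% of all genes, and a linear model without moderation also called 0 at each. By adjusted p alone, 0, 3 and 8 collagen genes passed, all of them higher with LH, where 4.9% and 5.19% of all genes passed as higher at 4 and 8 h. The median log2 fold change of the collagen genes was 0.02 at 1 h, 0.21 at 4 h and 0.25 at 8 h, while that of all genes was -0.01 at each time. All 4 LH times were set against the same 3 LHR+ arrays, so the 4 sets of values share whatever those arrays carry.

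At 20 h of LH, 8 collagen genes were called against LHR+ cells: COL1A2, COL4A4, COL5A2, COL6A1, COL7A1, COL11A2 and COL27A1 rose and COL6A3 fell. Of all genes 7.72% were called, 3.83% higher and 3.88% lower. By adjusted p alone 17 collagen genes were higher and 1 lower, where 16% of all genes were higher and 18% lower. The median log2 fold change was 0.40 over the collagen genes and -0.00 over all genes. Over all 43 collagen genes, 19 were separated upwards and 4 downwards, against 20.8% and 22.3% of all genes.

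**Figure D3:**
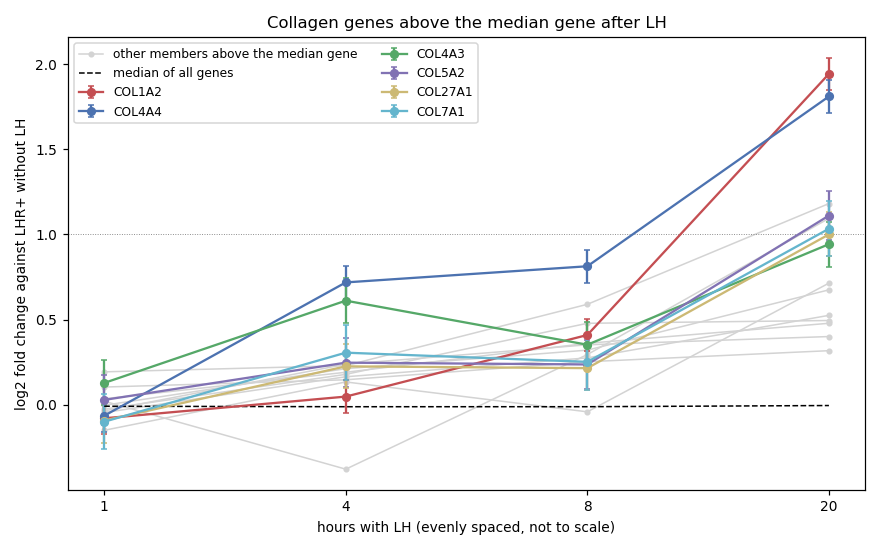
Log2 fold change against LHR+ cells without LH, on the log2(intensity + 1) scale, for the 15 collagen genes with signals above the median gene after 1, 4, 8 and 20 h of LH; coloured lines are named genes with standard errors as bars, grey lines the other 9, and the dashed line the median of all genes. At 20 h COL1A2 is at 1.94 and COL4A4 at 1.81; the genes shown were chosen by a mean that includes the LH20 arrays.

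COL1A2 rose mainly between 8 and 20 h of LH. It read 968, 1108 and 1014 at LH1, 1158, 1276 and 959 at LH4, 1449, 1432 and 1450.0 at LH8, and 4001, 4314 and 4224 at LH20. The first 2 times overlapped LHR+ cells, LH8 lay just above them, and LH20 was clear of all earlier times. The log2 fold change against LHR+ was 0.41 at LH8 (SE 0.09, adjusted p = 0.017) and 1.94 at LH20 (SE 0.09, adjusted p = 1.7e-08). By its brightest probe set, COL1A2 was the 1 collagen gene called between consecutive LH times, with a log2 fold change of 1.53 for LH20 against LH8 (SE 0.09, adjusted p = 3.1e-07), where 6.72% of all genes were called in at least 1 of the 3 steps. The count rests on the brightest probe set of each gene: in the same step another probe set was called higher for COL5A2 (1.38), COL4A4 (1.505), COL7A1 (1.24) and COL27A1 (1.13), as were 2 for COL4A3 (1.08 and 1.04), and 1 for COL5A3 was called lower (-1.31). With all probe sets averaged, 4 collagen genes were called between consecutive times. COL1A1 rose by 0.32 at LH20 (SE 0.07, adjusted p = 0.0054), under the fold threshold. By the brightest probe sets, the COL1A2 to COL1A1 log2 ratio therefore rose by 1.62 (SE 0.07, exact p = 0.1). That p again adds nothing, since COL1A2 was already far apart. The size of the rise depends on the COL1A1 probe set, and another averaged 4161 in LHR+ cells without LH and 6416 at LH20.

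COL5A2 read 1815, 2332 and 2056 at LH20, against 979.8, 1059.7 and 831 in LHR+ cells without LH, a log2 fold change of 1.11 (SE 0.14, adjusted p = 6.0e-05). At LH1, LH4 and LH8 its log2 fold changes were 0.03, 0.25 and 0.24, with adjusted p from 0.40 to 1.00. COL8A1, the third of the bright genes lowered in LHR+ cells, read 1305, 1367 and 1368 at LH20, a log2 fold change of 0.71 (SE 0.11, adjusted p = 0.00024) that did not reach 2-fold. COL3A1 read 14.8, 28.9 and 29.8 at LH20 and its arrays overlapped those of LHR+ cells without LH (log2 fold change 1.43, SE 0.78, adjusted p = 0.21). As a percentage of the LHR- mean, COL1A2 stood at 58.5% at LH20 and 15.2% in LHR+ cells without LH, COL5A2 at 53.8% and 24.9%, COL8A1 at 68.6% and 41.8%, and COL3A1 at 11.4% and 7.02%.

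COL6A3 went the other way. It read 26.4, 32.1 and 44.0 at LH20, against 102, 87.6 and 64.2 in LHR+ cells without LH, and the groups did not overlap. The log2 fold change was -1.29 (SE 0.35, adjusted p = 0.014), and -1.0 with 16 added. At LH8 replicate 2 read 117, against 43.4 and 44.3 in the other replicates. COL6A1 read 289, 396 and 359 at LH20 and 189, 141 and 130.3 in LHR+ cells without LH, a log2 fold change of 1.18 (SE 0.28, adjusted p = 0.0061). COL6A1 is represented by 8 probe sets, and the other 7 were not called at LH20, with log2 fold changes between -0.48 and 1.57. The average over all 8 gave 0.67 (adjusted p = 0.11).

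COL4A4 and COL4A3 were already higher at 4 h of LH. COL4A4 read 1189, 1383 and 1398 at LH1, 2456, 2071 and 2302 at LH4, 2306, 2578 and 2399 at LH8, and 4388, 5138 and 5028 at LH20. It was above every LHR+ array from 4 h on, with log2 fold changes of 0.72 at LH4 (SE 0.10, adjusted p = 0.00032), 0.81 at LH8 (SE 0.10, adjusted p = 0.00017) and 1.81 at LH20 (SE 0.10, adjusted p = 2.9e-08). COL4A3 read 2177, 2696 and 2762 at LH4, 2042, 2108 and 2199 at LH8, and 3283, 3019 and 3259 at LH20. Its log2 fold change of 0.61 at LH4 (SE 0.13, adjusted p = 0.011) and 0.35 at LH8 (adjusted p = 0.14) was followed by 0.94 at LH20 (SE 0.13, adjusted p = 0.00011), just under 2-fold. COL4A1 and COL4A2 rose by 0.40 (SE 0.06, adjusted p = 0.00018) and 0.49 (SE 0.12, adjusted p = 0.0078) at LH20. The log2 ratios of COL4A3 to COL4A1 and of COL4A4 to COL4A2 rose by a further 0.54 (SE 0.12) and 1.31 (SE 0.10), each with an exact p = 0.1. The partner chains were chosen after their values were seen, so these p-values are no separate support.

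COL7A1, the anchoring fibril collagen that ties epithelium to the matrix beneath, read 1414, 1926 and 1927 at LH20, against 893, 835 and 819 in LHR+ cells without LH. The log2 fold change was 1.03 (SE 0.16, adjusted p = 0.00028), and its other probe set was also called, at 1.37. COL11A2, another chain of type XI collagen, read 392, 589 and 563 at LH20 and 216, 276 and 222 in LHR+ cells without LH, a log2 fold change of 1.09 (SE 0.19, adjusted p = 0.00052). Its second probe set was at 0.30 and not called. COL27A1 read 962, 1148 and 1207 at LH20, against 518, 529 and 606 in LHR+ cells without LH, a log2 fold change of 1.00 (SE 0.13, adjusted p = 5.7e-05) at the edge of the fold threshold. Leaving out single arrays ended the calls of these genes by small margins: without LH20 replicate 2 the log2 fold changes were 0.96 for COL7A1, 0.99 for COL11A2 and 0.97 for COL27A1, and 5 collagen genes were called in all. COL7A1 also missed the threshold without LH20 replicate 3, at 0.96, and COL27A1 without LH20 replicate 3 or LHR+ replicate 1 or 2, at 0.93, 0.96 and 0.97. COL11A1, which was high in LHR+ cells, read 322, 399 and 415 at LH20 and changed by 0.36 (SE 0.39, adjusted p = 0.58).

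Other bright collagens rose by less than 2-fold. COL12A1 and COL18A1, a fibril-associated chain and a multiplexin of basement membranes, rose by 0.53 (SE 0.07, adjusted p = 4.9e-05) and 0.67 (SE 0.10, adjusted p = 0.00016) at LH20, and COL5A1 rose by 0.48 (SE 0.08, adjusted p = 0.00058). Summed epithelial and ovarian carcinoma marker intensities were between 37624 and 39121 at LH20, against 24602 and 26792 in LHR+ cells without LH, with MUC1, ERBB2 and CDH1 called higher and WT1 lower. Fibroblast and stroma markers summed to between 1573 and 1693 at LH20, against 1330 and 1437 in LHR+ cells without LH, with LUM, DCN and PDGFRA called higher. The part of either in the collagen values was not tested.

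When LH20 was set against LHR- cells, 10 collagen genes were called, against 10.3% of all genes. COL11A1, COL13A1, COL27A1, COL4A3, COL4A4 and COL6A1 were higher, where 5.37% of all genes were, and COL2A1, COL3A1, COL6A3 and COL15A1 were lower, where 4.96% of all genes were. COL4A4 differed by 2.59 (SE 0.10, adjusted p = 4.8e-10) and COL4A3 by 1.95 (SE 0.13, adjusted p = 1.0e-07), and COL27A1 by 2.04 (SE 0.13, adjusted p = 5.8e-08). COL11A1 differed by 5.85 (SE 0.39, adjusted p = 9.8e-08). COL13A1 differed by 3.05 (SE 0.44, adjusted p = 0.00011), but its other 2 probe sets, at -0.60 and -0.03, were not called. COL6A1 differed by 1.39 (SE 0.28, adjusted p = 0.0017), with none of its other 7 probe sets called. COL6A3 differed by -3.19 (SE 0.35, adjusted p = 1.1e-05), COL3A1 by -3.14 (SE 0.78, adjusted p = 0.0069) and COL15A1 by -1.79 (SE 0.57, adjusted p = 0.029). COL1A2, COL5A2 and COL8A1 remained below LHR- cells by 0.77, 0.89 and 0.54 on the log2 scale, with separated arrays and adjusted p from 2.6e-05 to 0.0017, but were not called, at less than 2-fold. Another probe set of COL1A2 averaged 1834 at LH20 and 4535 in LHR- cells and was called lower there, at -1.30 (adjusted p = 9.2e-06). A less bright probe set was called higher for COL7A1, averaging 1159 at LH20 and 502 in LHR- cells. The same held for COL6A2 (181 and 85.7) and for COL8A2 (20.0 and 3.99, both dim). By its brightest probe set COL1A1 no longer differed past the threshold, at -0.10 (SE 0.07, adjusted p = 0.35). Another COL1A1 probe set was still lower, at -0.29 (adjusted p = 0.042 by limma), with separated arrays. The rest were at -0.02, -0.18 and -0.31, with adjusted p from 0.74 to 0.93. COL2A1, the chain of cartilage type II collagen, read 1.89, 1.19 and 10.4 at LH20, against 12.3, 20.6 and 19.4 in LHR- cells, and its other probe set ran the other way at 1.84.

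Of the 29 calls over the 9 comparisons, which fell on 15 genes (17.8% of all genes were called in at least 1 comparison), the other probe sets of a gene did not always follow. COL1A2, COL5A2 and COL11A1 had the same call on every probe set in LHR+ against LHR- cells. COL3A1 had it on 2 of its 4 others, at -3.26 and -3.64, COL4A3 on 2 of its 6 others, and COL8A1 on 1 of its 2 others. COL15A1 and COL6A3 had a single probe set. In LH20 against LHR+ cells, 5 of the 6 other COL4A3 probe sets were called, where the brightest one missed the fold threshold. All probe sets of COL1A2, COL4A4, COL5A2 and COL7A1 were called in that comparison. The less bright probe set of COL4A1 was called lower in LHR+ cells, at -1.22, and that of COL13A1 was called lower at LH20, at -1.87.

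**Figure D4:**
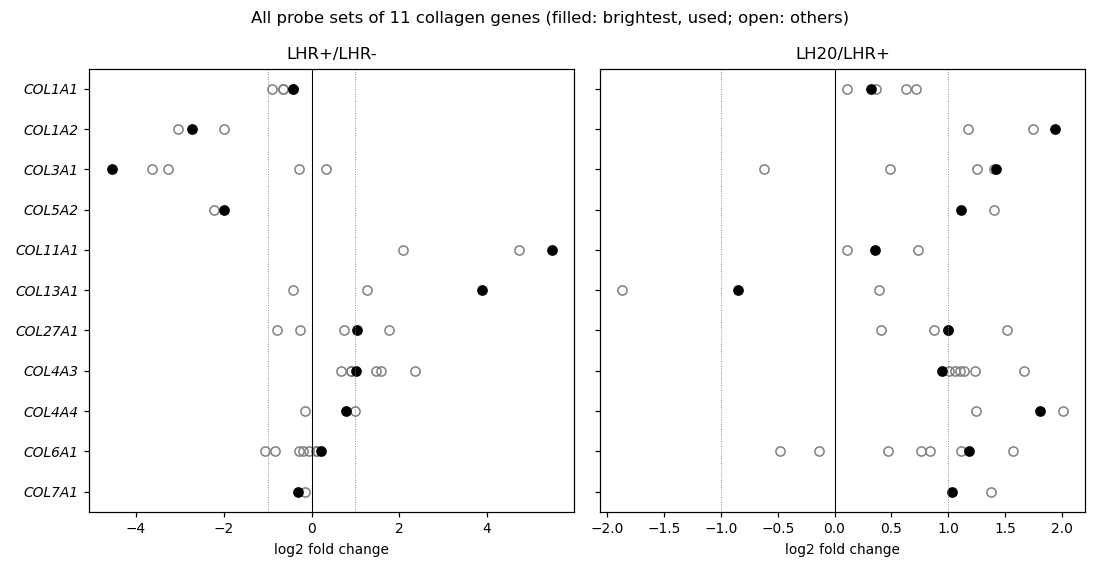
Log2 fold changes of every probe set of 11 collagen genes, for LHR+ against LHR- cells on the left and LH20 against LHR+ cells on the right; filled points are the brightest probe set of the gene, open points the others, and dotted lines mark a 2-fold change. The probe sets of COL1A2, COL5A2 and COL4A3 lie together, while those of COL13A1 and COL6A1 spread over both sides of 0.

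Few genes of the machinery that modifies and folds collagen chains reached the fold threshold. Of 22 measured genes for prolyl and lysyl hydroxylation, glycosylation and chaperoning, 0 were called by limma in LHR+ against LHR- cells or at any LH time against LHR+ cells. At an unadjusted p under 0.05 there were 11 in LHR+ cells, and 0, 5, 8 and 12 after 1, 4, 8 and 20 h of LH, against 25.6% of all genes in LHR+ cells and 7.03%, 19.4%, 20.2% and 36.9% after LH. Their median log2 fold changes were -0.14 in LHR+ cells and 0.16 at LH20. P4HA1, a prolyl hydroxylase subunit, was called in LH20 against LHR- cells, at 1.07 (SE 0.09, adjusted p = 1.1e-06). In the lists that follow, counts of called genes stand against 2.57% of all genes called higher and 2.06% lower in LHR+ cells, and 3.83% higher and 3.88% lower at LH20. Among 17 genes of procollagen processing and cross-linking, ADAMTS2 and ADAMTS3, which cleave the amino-terminal propeptides of fibrillar procollagens, were called higher in LHR+ cells, at 2.79 and 1.65, and LOX and TGM2, which cross-link matrix proteins, were called lower, at -1.35 and -2.82. LOX read 536, 315 and 420.0 in LHR+ cells, against 1073, 1104 and 996 in LHR- cells, and at LH20 it read 1230.1, 1153 and 949, a log2 fold change of 1.41 against LHR+ cells (SE 0.21, adjusted p = 0.00015). LOX at LH20 is named after its values were seen. At LH20, 4 of the 17 were called higher against LHR+ cells, among them TLL1 and PCOLCE at 2.30 and 1.56. At that time 2 were called lower, LOXL4 and ADAMTS3, at -2.30 and -1.87. Before that, TGM2 was called higher at LH4, where 1.3% of all genes were, and LOXL4 lower at LH8, where 0.728% were.

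Among 15 fibril-associated proteoglycans and glycoproteins, LUM, ABI3BP, DCN and SPARC were called lower in LHR+ cells, at -7.88, -2.74, -2.25 and -1.47. LUM and DCN were called higher at LH20, at 3.37 and 3.20. LUM was already called higher against LHR+ cells at LH4 and LH8, where 1.3% and 1% of all genes were. FMOD was called lower at LH4, where 0.925% of all genes were. Of 10 collagen-degrading proteases, MMP13, MMP1, MMP2 and FAP were called lower in LHR+ cells, at -3.83, -1.44, -1.23 and -3.09. MMP13 read 255, 269 and 202 in LHR+ cells and 3547, 3272 and 3502 in LHR- cells, and read 667, 801 and 712 at LH20, a log2 fold change of 1.59 against LHR+ cells. CTSK was called higher at LH20, at 1.43. Of 13 collagen receptors, CSPG4 was called higher and ITGA11, the alpha chain of an integrin that binds fibrillar collagen, lower in LHR+ cells, at 1.97 and -2.67, and ITGA1, ITGA10 and ADGRG1 were called higher at LH20, at 1.83, 1.29 and 1.22. At LH8, ITGA11 and ITGA2 were called lower against LHR+ cells, at -1.76 and -1.10, where 0.728% of all genes were.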

How the data were processed

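The values were the deposited Affymetrix Human Genome U133 Plus 2.0 probe set intensities of 18 arrays, made by the authors on a linear scale. The submitters' processing notes name PLIER and the study's methods name RMA; which of them made the deposited intensities, and whether they carry a background offset, was not settled. RNA was amplified (NuGEN) before labelling. No scanner files or detection calls were used here, so arrays have no depth and their number limits the precision. Probe sets were named through GEO's platform annotation, with symbols updated through Entrez IDs: of 54675 probe sets, 41097 had 1 symbol, 1801 several and 11777 none. Values of 19775 genes, 1 probe set each, were taken as log2(intensity + 1) with no further normalization and no filter on low values, and tested with limma 3.58.1 (R 4.3.3, lmFit and eBayes) over all 6 groups, which share 1 estimate of the spread. The 9 comparisons were LHR+/LHR-, the 4 LH times against LHR+, LH20/LHR- and the 3 steps between LH times. The fold changes are on the log2(intensity + 1) scale. For dim genes the size of a fold depends on the constant added and on single readings near the floor, and can be too small or too large. The call rule follows the study's thresholds with limma in place of its tests. The scripts were tested on simulated data.

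All 15 collagen genes called in at least 1 comparison were named; of each other list at most 4 called genes per comparison were named. The uncalled partner chains (COL1A1, COL4A1, COL4A2, COL5A1, COL6A2), COL12A1, COL18A1 and LOX at LH20 were chosen after their values were seen. The members and lists were chosen with earlier results of these data known. The study's methods call the replicates independent but neither they nor the labels say whether they were separate cultures, so p-values measure the spread between these samples, which may be technical. Alternatives were 16 as pseudocount, equal array medians, the mean of all probe sets, genes above the median gene only, the 2 groups alone, a replicate block, no moderation, no fold threshold, and each array left out. Same-numbered arrays were checked for shared deviations before the block was used. Promoter sequences came from RefSeq (GRCh38.p14).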

Additional observations from a re-analysis of the deposited data

Results flagged for a closer look

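COL1A2 was flagged because its effect differed between LH times: LH20 against LH8 gave a log2 fold change of 1.53 (SE 0.09, adjusted p = 3.1e-07 by limma), higher in 3 of 3 LH20 arrays.

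Other flagged values come from probe sets outside the comparisons above, which were called higher where the brightest probe set of the gene was not. For COL4A3, 5 such probe sets gave log2 fold changes of 1.67, 1.01, 1.11, 1.23 and 1.14 in LH20 against LHR+ cells. A second probe set of COL4A4 gave 1.00 in LHR+ against LHR- cells, and 1 of COL6A2 gave 1.02 in LH20 against LHR+ cells. A dim probe set of COL6A1 gave 2.36 in LH8 against LHR+ cells.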

How the results depend on the processing

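The counts of called collagen genes were 10 for LHR+/LHR-, 0, 0, 0 and 8 for LH1, LH4, LH8 and LH20 against LHR+, 10 for LH20/LHR- and 1 for the steps between LH times. Dropping the fold threshold gave 18, 0, 3, 8, 16, 16 and 12. Of all 19775 genes it called 1966 higher and 1564 lower in LHR+/LHR-, where 6 collagen genes were higher and 12 lower. In LH20/LHR+ it called 3024 and 3417 of all genes, and 15 and 1 collagen genes. In LH20/LHR- it called 3386 and 3490 of all genes, and 9 and 7 collagen genes, a share near that of all genes. At LH4 and LH8 it called 959 and 1006 of all genes higher, and 1156 and 1113 lower. With genes above the median gene only, which leaves 15 collagen genes, LHR+/LHR- gave 5 and LH20/LHR- gave 4. Of all genes in that setting, LHR+/LHR- had 178 higher and 88 lower, and LH20/LHR- had 479 and 441. The steps gave 2 with equal array medians and 4 with the mean of all probe sets, all of them in LH20/LH8. In that step 394 of all genes were higher and 507 lower with equal array medians, and 406 and 388 with the mean. Leaving out 1 array gave between 8 and 10 for LHR+/LHR-, 0 and 0 for LH1, 0 and 1 for LH4, 0 and 1 for LH8, 5 and 9 for LH20/LHR+, 8 and 11 for LH20/LHR-, and 1 and 3 for the steps; the 5 came without LH20 replicate 2, the 1 at LH8 without LHR+ replicate 2, and the 1 at LH4 without LHR+ replicate 2 or LH4 replicate 2 or 3. The cause of these shifts was not tested. Single-gene values were followed only for the 29 calls. These were already chosen for size and separated arrays, so a change of direction was unlikely from the start. None changed direction under any alternative run. Of the values run again, 204 stayed on the same side of the call and 16 lost it. With arrays left out, 153 stayed and 21 lost it.

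Correlations between the deviations of same-numbered arrays were of mixed sign in 8 of the 9 comparisons, from -0.154 to 0.289. In LH20/LHR- all 3 pairs lay between 0.167 and 0.228. With the replicate number as a block, the counts were 10, 0, 0, 0, 8, 10 and 1, as without it. For dim genes the size of a fold depended on the pseudocount: 16 took COL13A1 to 1.78, COL3A1 to -2.99 and COL15A1 to -0.76 in LHR+/LHR-. COL2A1 lost its LH20/LHR- call without LHR- replicate 2 or 3 or LH20 replicate 1 or 2, with adjusted p up to 0.17.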
